A study of Mus musculus with 2 samples.

Results

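Shores were taken here as windows of 1 kb with few listed CpGs that lie beside a CpG-dense window. On a fixed grid over the 19 autosomes, a window was dense when 30 or more of its CpGs were listed in both libraries. A shore was a window 1 or 2 steps from a dense window, with under 15 CpGs listed in both libraries. It also needed 3 or more compared CpGs, meaning CpGs covered by at least 10 reads in both libraries. The limits count listed CpGs and not all CpGs of the sequence, so a shore need not be poor in CpGs. The Sphk1 and Etv5 promoters printed below each lie in 1 shore and hold 21 and 19 CpGs. This rule uses position and read depth and no methylation level. It found 3981 shores among 90713 autosomal windows with 3 or more compared CpGs, 3023 of them 1 step and 958 of them 2 steps from a dense window. They flanked 3239 of the 7344 runs of adjacent dense windows, and 29 shores lay between 2 runs. Of the windows 1 or 2 steps from a dense window, 10689 were not themselves dense. Of these, 8603 listed under 15 CpGs, and 3981 had the 3 compared CpGs needed.

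The data are CpG methylation calls from 2 lines of mouse haploid embryonic stem cells, cells with a single chromosome set, with 1 library of genomic DNA each. The strain background is 129Sv for A129-2 and C57BL/6 for AOS-14. Per the labels' protocols both lines were made from AG-haploid embryos with the help of cell sorting, and no treatment is named for either. The protocols describe a capture panel for about 100 Mb of the genome and bisulfite conversion, while the series title names RRBS, a method that cuts DNA at CCGG with the enzyme MspI. The labels do not settle which was used, and CpGs inside CCGG are called MspI-site CpGs and kept apart from other CpGs wherever that matters.

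Most CpGs of a mammalian genome are methylated in most cells, and CpG islands, the CpG-dense stretches at many gene starts, are the main exception. The regions next to an island, known as island shores, hold the passage from unmethylated to methylated DNA. Shore methylation is known to differ between tissues and between stem cells and their differentiated progeny more often than methylation of the islands themselves. Mouse embryonic stem cells can hold low methylation genome-wide, depending on the culture medium.

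On the autosomes, the A129-2 library listed 1637419 CpGs with 148865946 read calls. The AOS-14 library listed 1754780 CpGs with 173629358 read calls. The shores held 24594 compared CpGs, of which 8411 were MspI-site CpGs. A shore had a median of 5 compared CpGs, between 3 and 14, and listed a median of 7. The median over shores of the mean reads per CpG was 99.3 in A129-2 and 118.2 in AOS-14. The level of a CpG is its methylated reads as a percent of all its reads, and the level of a window is the mean over its compared CpGs. With 1 library a line there is no replicate check, windows and CpGs are not replicates of a line, and line, strain background and library cannot be told apart.

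Promoters that start in shores show what the measured sequence looks like. RefSeq promoters (assembly GRCm38.p6, the assembly of mm10) run from 250 bases before the start site to 50 bases after it. Of 31396 autosomal promoters, 495 had their start site inside a shore, and 178 of those, of 174 genes, held 5 or more compared CpGs. Below are the 2 highest of these in AOS-14 (Gm51786, Coro6), 1 in which MspI-site and other CpGs stand far apart (Sphk1), and 1 that is almost unmethylated (Etv5). They were chosen after their values were seen. Each is printed 5′ to 3′ on the strand of its gene. Capitals mark the compared CpGs, as CG alone or as CCGG at an MspI site.
Gm51786 promoter: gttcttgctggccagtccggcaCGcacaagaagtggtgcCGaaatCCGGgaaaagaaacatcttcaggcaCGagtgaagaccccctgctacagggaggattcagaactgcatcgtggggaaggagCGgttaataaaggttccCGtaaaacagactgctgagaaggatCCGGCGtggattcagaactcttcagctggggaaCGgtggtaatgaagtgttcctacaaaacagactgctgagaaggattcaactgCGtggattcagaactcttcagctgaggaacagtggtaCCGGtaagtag
Coro6 promoter: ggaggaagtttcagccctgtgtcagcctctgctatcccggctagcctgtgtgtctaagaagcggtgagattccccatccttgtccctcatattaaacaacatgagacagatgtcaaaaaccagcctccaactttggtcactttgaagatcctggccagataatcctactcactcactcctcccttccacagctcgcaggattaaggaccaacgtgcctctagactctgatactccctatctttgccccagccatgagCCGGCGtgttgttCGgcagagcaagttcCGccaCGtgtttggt
Sphk1 promoter: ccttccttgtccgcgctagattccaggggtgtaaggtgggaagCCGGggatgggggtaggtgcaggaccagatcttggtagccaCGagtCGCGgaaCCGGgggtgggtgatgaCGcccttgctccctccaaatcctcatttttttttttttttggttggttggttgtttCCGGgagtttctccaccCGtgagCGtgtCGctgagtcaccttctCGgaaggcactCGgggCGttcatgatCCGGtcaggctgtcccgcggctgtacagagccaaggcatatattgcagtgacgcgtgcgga
Etv5 promoter: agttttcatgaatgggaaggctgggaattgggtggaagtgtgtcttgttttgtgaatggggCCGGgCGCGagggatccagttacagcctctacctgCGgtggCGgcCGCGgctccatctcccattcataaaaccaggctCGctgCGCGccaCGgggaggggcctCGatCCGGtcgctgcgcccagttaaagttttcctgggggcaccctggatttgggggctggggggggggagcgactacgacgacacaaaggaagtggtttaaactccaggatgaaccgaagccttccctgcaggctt
The promoters lie at chr10:121353651-121353950 (plus strand, Gm51786), chr11:77463661-77463960 (plus strand, Coro6), chr11:116531587-116531886 (plus strand, Sphk1) and chr16:22438319-22438618 (minus strand, Etv5).

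The promoter of the gene model Gm51786 averaged 15.2% (A129-2) and 34.99% (AOS-14) over 11 compared CpGs, 10 of which were lower in A129-2. Its dense window, 2 steps away, stood at 2.35% and 2.46%. At Coro6, which encodes an actin-binding protein of the coronin family, 5 CpGs just after the start site had means of 17.2% and 26.5%, and all 5 were lower in A129-2. In Sphk1, which encodes a kinase that makes the lipid signal sphingosine-1-phosphate, the 4 MspI-site CpGs had means of 19.3% and 21.6%. The 10 other CpGs of the same 300 bases had means of 3.91% and 4.86%, the contrast for which this promoter was chosen. The highest MspI-site CpG there, at 40.6% and 32.8%, rests on 32 and 67 reads. In Etv5, which encodes an ETS-family transcription factor, the 11 other CpGs had means of 0.568% and 0.232%, with 9 of them at 0 in each line. Its 2 MspI-site CpGs had means of 2.78% and 12.5%, from as few as 14 reads in A129-2. Among these promoters Etv5 is nearer the usual case. The medians over the 178 promoters were 2.48% (A129-2) and 3.36% (AOS-14), and 6 of them reached 10% in AOS-14. These values take every compared CpG of the 300 bases, also where a promoter runs past its shore into the next window. The Arf3 promoter, for example, held 39 compared CpGs, while no shore held more than 14. The medians are therefore not levels of shores alone. The motif CCGG, which reads the same on both strands, was present in 79.4% of the 495 promoters that start in a shore and in 53.5% of all autosomal promoters of the same length. The 2 sets are not alike, because a shore needs covered CpGs near a dense window and the full set does not.

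**Figure D1:**
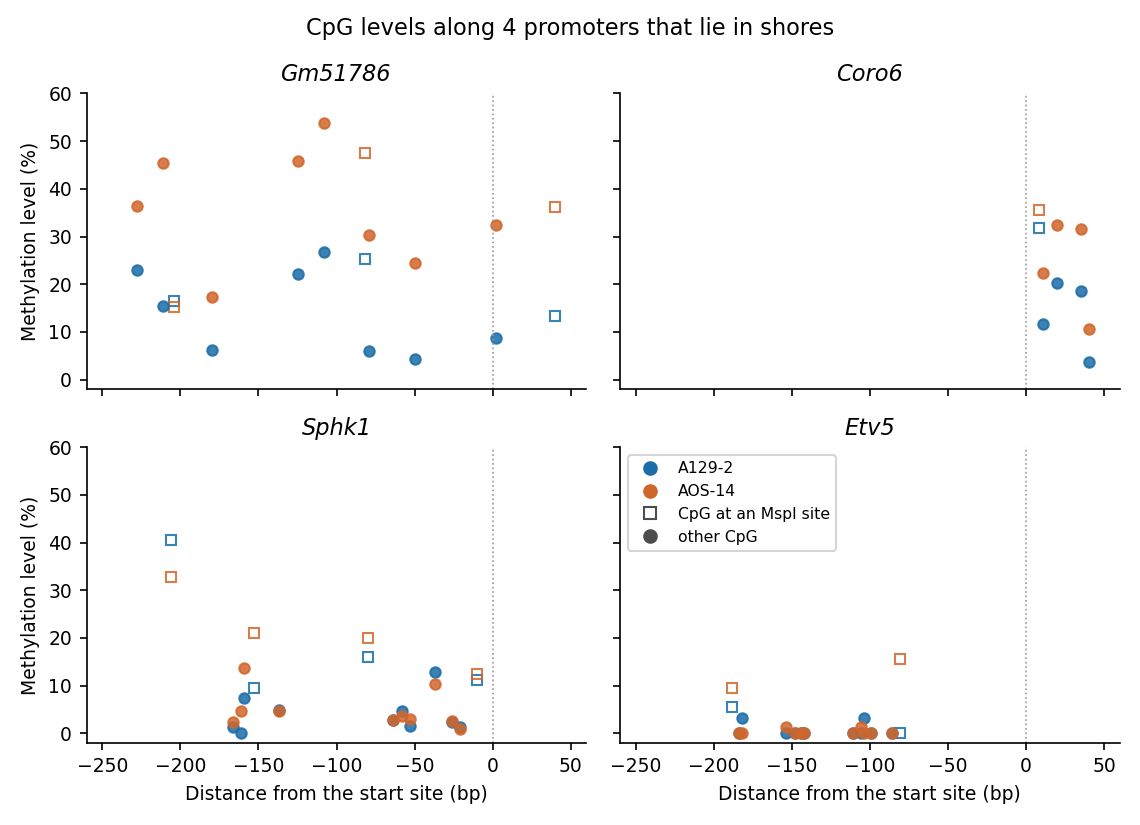
Methylation level (%) of each compared CpG against its distance (bp) from the start site in the 4 promoters printed above. Blue is A129-2, orange is AOS-14, open squares are MspI-site CpGs and filled circles other CpGs. The Gm51786 points of AOS-14 lie between 15.3% and 53.8%, and the filled circles of Etv5 lie at or near 0 in both lines.

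Shores were methylated at an intermediate level, above the dense windows and below windows with few listed CpGs far from any dense window. The mean over 3981 shores was 7.75% in A129-2 (SD over shores 6.58) and 11.4% in AOS-14 (SD 10.8), with medians of 5.76% and 7.33%. Shores 1 step out had means of 6.23% and 8.66%. Shores 2 steps out had means of 12.5% and 19.9%, with an SD over shores of 5.35 and 8.46 at step 1 and of 7.73 and 12.6 at step 2. The gap between the steps was thus above the spread of step 1 shores and below that of step 2 shores in both lines. The 8769 dense windows had means of 2.89% and 3.83%. Distant sparse windows, which meet the same CpG limits as shores but lie 10 or more steps from any dense window, had means of 16.8% and 27.3% over 63003 windows. On 19 of 19 autosomes, in both lines, step 2 shores were above step 1 shores and distant sparse windows above step 2 shores.

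**Figure D2:**
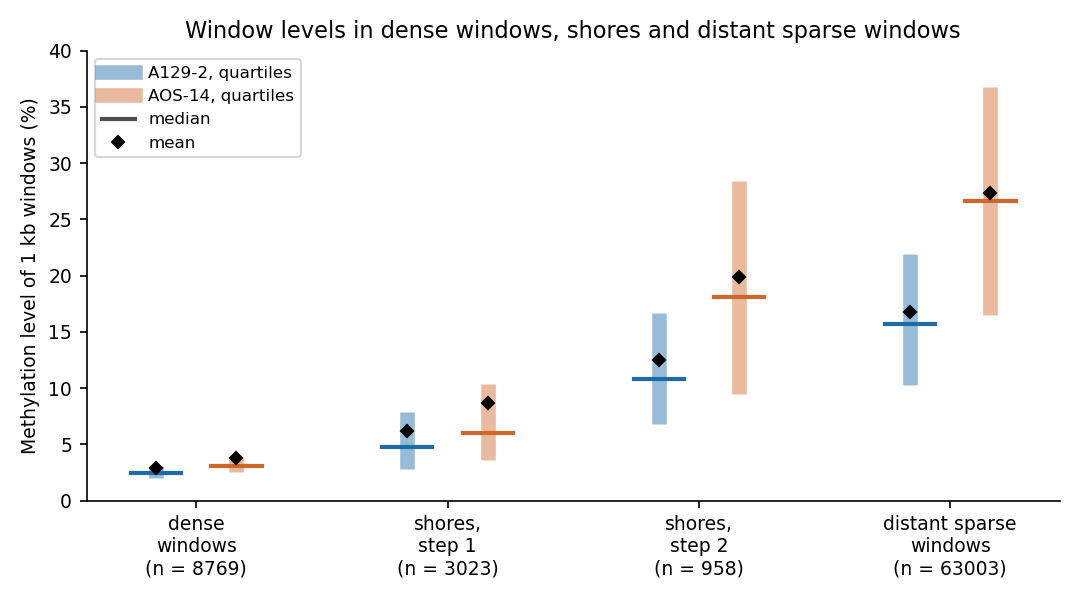
Methylation level (%) of 1 kb windows in 4 classes, with A129-2 in blue and AOS-14 in orange. Bars span the quartiles over windows, lines are medians and diamonds are means, and each pair steps up from the dense windows (means 2.89% and 3.83%) to the distant sparse windows (16.8% and 27.3%).

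The distribution over step 1 shores was skewed, with most shores close to the dense windows and a minority well above. In A129-2 52.7% and in AOS-14 41.4% of step 1 shores were under 5%, against 14.9% and 8.25% at step 2. At step 2, 31.4% of shores reached 25% or more in AOS-14 and 6.89% in A129-2. Full methylation was rare at either step: 45 of 3981 shores reached 50% in AOS-14 and 2 in A129-2. The highest shore level was 74.8% in AOS-14 and 64.1% in A129-2.

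The rise with distance was steepest inside the first kilobase. Inside the dense windows, CpGs outside MspI sites averaged 0.814% (A129-2) and 1.22% (AOS-14). Other CpGs had means of 1.27% and 1.88% in the first 250 bp of the shore, 2.79% and 4.55% in the next 250 bp, and 6.28% and 10.7% between 750 and 1000 bp. The means were then 7.68% and 12.9% between 1750 and 2000 bp. In sparse windows 4500 to 5000 bp out the same means were 8.66% and 16.3%, and in distant sparse windows they were 11.6% and 21.1%. The rise was therefore slower beyond the shores but did not end at their outer edge. In the first 250 bp, 56.6% of other CpGs had no methylated read in A129-2 and 45.7% had none in AOS-14, while between 1750 and 2000 bp these shares were 21.8% and 14.5%.

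**Figure D3:**
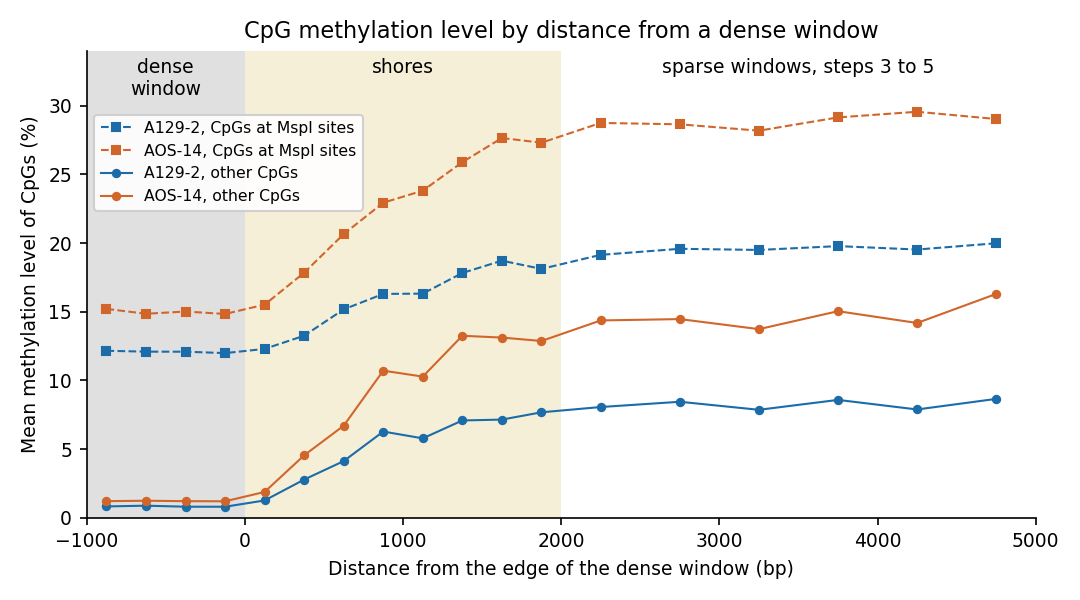
Mean methylation level of compared CpGs (%) against distance (bp) from the edge of the dense window, in bins of 250 bp up to 2000 bp and of 500 bp beyond. Blue is A129-2, orange is AOS-14, dashed lines with squares are MspI-site CpGs and solid lines with circles other CpGs. All 4 lines are flat inside the dense window and rise across the shores.

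The edge of a window on a fixed grid is not the edge of a CpG-dense stretch, so distance was also counted from the outermost listed CpG of the dense window. Other CpGs then had means of 1.14% and 1.69% within 250 bp, 5.61% and 9.87% between 1000 and 1250 bp, and 7.47% and 13.6% between 1750 and 2000 bp. The same rise was present where both steps were measured on 1 flank of 1 dense run. On 273 such flanks, step 2 exceeded step 1 by a mean of 5.33 points in A129-2 (SD over flanks 8.43), on 211 of the flanks, and by 9.28 points in AOS-14 (SD 12.01), on 217. Without MspI-site CpGs, 268 flanks gave differences of 4.33 points (SD 8.06) and 8.21 points (SD 11.97). The mean rise was thus smaller than its spread between flanks, and single flanks did not all follow it.

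Shores with fewer listed CpGs were more methylated at the same step. At step 1, shores listing 3 to 5 CpGs had means of 7.97% and 11.3%, those listing 6 to 9 had 5.96% and 8.22%, and those listing 10 to 14 had 4.81% and 6.49%. At step 2 the corresponding means were 13.98% and 22.5%, 11.6% and 18.3%, and 8.98% and 13.7%. Distant sparse windows had the same order, at 17.5% and 28.3%, 16.3% and 26.9%, and 14.2% and 23.6%. The share of MspI-site CpGs, which were more methylated, also fell across these classes, from 43.5% to 27.0% at step 1 and from 53.5% to 32.0% in distant windows. Without MspI-site CpGs the order held at step 1 (3.39% and 5.67%, 2.44% and 3.83%, 1.86% and 2.88%) and at step 2 (8.52% and 15.6%, 7.42% and 13.3%, 5.36% and 9.23%). It did not hold in distant windows, where the class of 6 to 9 CpGs was the highest (11.9% and 21.6%, 12.3% and 22.2%, 10.9% and 19.9%). Across the upper limit of the rule, 200 windows with 14 listed CpGs had means of 4.59% and 6.10%, and 186 neighbours of dense windows with 15 had 3.99% and 5.24%.

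MspI-site CpGs carried much more of the measured methylation than their share of CpGs. They made up 34.2% of compared shore CpGs and had means of 14.4% in A129-2 and 19.6% in AOS-14, against 2.84% and 4.73% at the other 16183 CpGs. Of the other CpGs, 45.9% in A129-2 and 35.3% in AOS-14 had no methylated read, while 4.15% and 1.74% of MspI-site CpGs had none. The 2 kinds differed inside single shores as well. In 2343 shores with at least 2 compared CpGs of each kind, MspI-site CpGs were higher in 2293 in A129-2 and in 2291 in AOS-14. The mean gap was 10.5 points (SD over shores 4.98) and 12.8 points (SD 5.62).

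This gap was nearly the same at every distance. In the dense windows, where other CpGs had means of 0.814% and 1.22%, it was 11.2 points in A129-2 and 13.8 points in AOS-14. In the first 250 bp of the shores it was 11.03 and 13.6 points, between 1750 and 2000 bp it was 10.4 and 14.4 points, and between 4500 and 5000 bp it was 11.3 and 12.7 points. Over all bins from the dense windows to 5000 bp it lay between 10.02 and 11.6 points in A129-2 and between 12.2 and 15.4 points in AOS-14. MspI-site CpGs were 31.8% of compared CpGs at step 1 and 43.7% at step 2. The rise between the steps was therefore also taken without them, and went from 2.55% to 7.71% in A129-2 and from 4.10% to 13.96% in AOS-14 in means over shores. What sets the level at MspI sites apart was not tested.

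A129-2 was lower than AOS-14 in most shores, and the ratio of the lines was smaller at step 2 than at step 1. The level was lower in A129-2 in 3171 shores and equal or higher in 810. The ratio of the mean in A129-2 to that in AOS-14 was 0.720 at step 1 and 0.629 at step 2, against 0.756 in dense windows and 0.613 in distant sparse windows. Without MspI-site CpGs the ratios were 0.621, 0.552, 0.651 and 0.550. Shores were lower in A129-2 on 19 of 19 autosomes.

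The ratio also moved with the level itself. Among windows at under 5% in AOS-14, it was 0.912 for step 1 shores, 1.080 for step 2 shores and 1.033 for distant sparse windows. Between 5% and 10% the ratios were 0.791, 0.840 and 0.864. Between 20% and 30% they were 0.606 (152 shores), 0.594 (208 shores) and 0.621, and between 40% and 50% they were 0.522 (23 shores), 0.572 (48 shores) and 0.577. Step 1 shores were thus below distant windows in each of these 4 ranges, with the widest gap at under 5%. The order was not the same in every range. Between 30% and 40% the ratio of step 1 shores, 0.5996 (58 shores), was slightly above that of distant windows, 0.592. Windows were placed in these ranges by AOS-14 itself, so the ratios are a description of windows with like AOS-14 levels and not a separate measure of the lines.

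Whole windows were then compared between the libraries with Fisher's exact test, two-sided, on methylated and unmethylated reads summed over compared CpGs, with Benjamini-Hochberg adjustment over all 90713 windows. The test compares these 2 libraries and not the strains, and covers counting error only. With a difference of at least 25 points required, 45 shores were lower in A129-2, which is 1.13% of shores beside 4.87% of all windows tested. No shore was higher by that rule, beside 0.00992% of all windows. A shore under 25% in AOS-14 could not be called lower, and 467 shores were at or above that level, of which the 45 called are 9.64%. Among all windows tested, 38591 were at or above that level and 4416 were called. The shares of 1.13% and 4.87% also count windows below that level. With no minimum difference, and with the mean level and the summed reads required to point the same way, 1233 shores were lower, or 31.0% beside 59.0% of all windows. By the same rule 19 were higher, or 0.477% beside 0.709%. By mean level alone 24 shores were higher, or 0.603% beside 0.849%, but in 5 of these the summed reads were lower in A129-2, and 1 more shore had a lower mean with higher summed reads. In none of the 45 did the mean and the summed reads point opposite ways.

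The 45 shores averaged 19.7% in A129-2 and 50.1% in AOS-14, and lay on 16 autosomes beside 41 dense runs. They fell into 2 kinds by the level of the dense window they flank. There were 18 beside a dense window under 5%, the usual case, and 25 beside a dense window of 20% or more, with 2 in between. Of the first kind, 13 of 18 were at step 2 and 12 of 18 in or at the end of genes. Among all 379 shores of such dense windows that reached 25% in AOS-14, 269 were at step 2 and 290 in or at the end of genes. Of the second kind, 20 of 25 were at step 1 and 24 of 25 flanked a dense run with no annotated start site. Among all 44 shores of dense windows at 20% or more, called or not, these counts were 28 and 43.

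**Figure D4:**
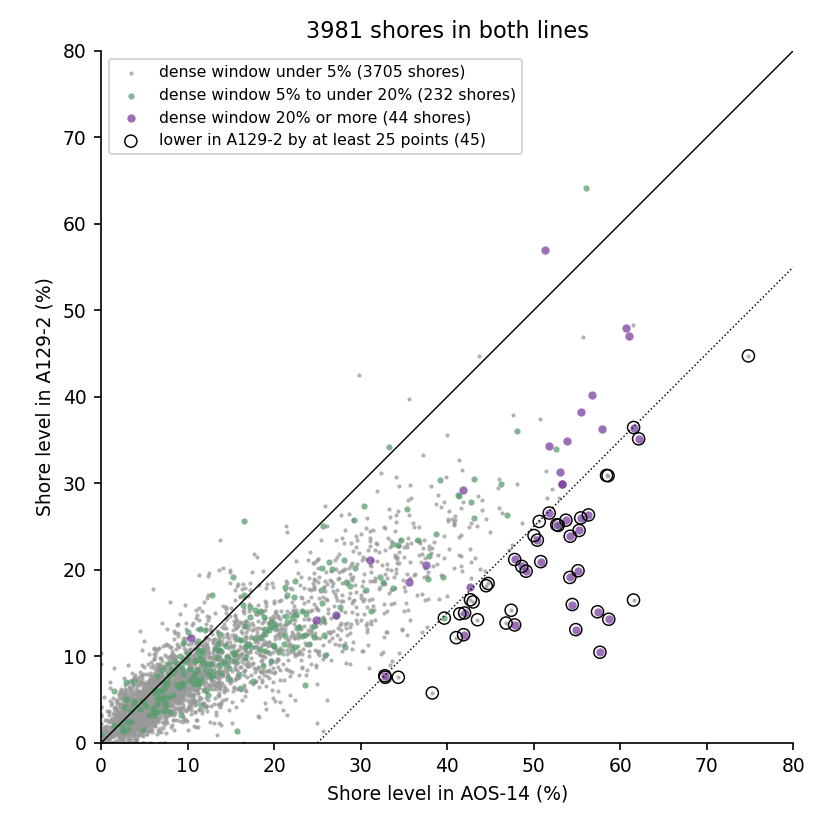
Level (%) of each of 3981 shores in AOS-14 (horizontal) and A129-2 (vertical), coloured by the mean level of both lines in its dense window. The solid line marks equal levels, the dotted line a difference of 25 points, and rings the 45 shores called lower in A129-2. Purple points, shores of dense windows at 20% or more, make up 25 of the 45 rings.

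Among called shores of unmethylated dense windows, the naming rule picked the shore in Pygm, which encodes the glycogen phosphorylase of muscle. Over 282 bp on chromosome 19 (mm10, 6397711 to 6397993, inside the gene and upstream of the start site of its dense run), 6 CpGs averaged 13.8% (A129-2) and 46.8% (AOS-14). Every one of the 6 was lower in A129-2, where levels lay between 4.86% and 28.8%, than in AOS-14, where they lay between 30.4% and 69.1%. These ranges did not overlap. The shore was picked for its large difference and CpGs are not replicates, so this gives no measure of spread within a line. Weighted by reads the levels were 12.9% (exact 95% interval 10.6 to 15.5, 759 reads) and 46.3% (43.2 to 49.5, 978 reads), and the adjusted p of Fisher's exact test was 2.64e-51. The dense window 2 steps away stood at 1.74% and 3.40%.

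Other shores of this kind, picked after their values were seen, lay in or near genes of varied function. In Lamb2, which encodes a laminin chain of basement membranes, 12 CpGs on chromosome 9 (108489230 to 108489457) had means of 18.2% and 44.5%, and all 12 were lower in A129-2. In Mepce, which encodes the enzyme that caps the 7SK RNA, 4 CpGs on chromosome 5 (137783206 to 137783301) had means of 5.77% and 38.3%. In Triobp, which encodes an actin-bundling protein, 3 CpGs had means of 16.5% and 61.5% from only 57 and 172 reads. Their dense windows, under 5% by the way these shores were grouped, stood between 2.06% and 3.69% in both lines. The shore 0.798 kb from Sirt5, a mitochondrial lysine deacylase gene, was the highest of all shores in AOS-14, with means over 4 CpGs of 44.7% and 74.8% and a dense window at 3.18% and 2.76%. Of the 18 shores, 9 had only 3 compared CpGs, so their values rest on few sites.

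Tmem267 stood apart because its shore and its dense window differed in opposite directions. Its 5 shore CpGs on chromosome 13 (119489063 to 119489107) had means of 7.75% in A129-2 and 32.8% in AOS-14, all 5 lower in A129-2. The dense window 1 step away had 50.2% in A129-2 and 16.6% in AOS-14. It is counted among the 25 shores of dense windows at 20% or more because that limit was set on the mean of both lines.

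Dense windows with a mean of 20% or more over both lines were few among those with shores, and they differed most between the lines. There were 44 such shores, with means of 24.7% in A129-2 and 49.2% in AOS-14, beside dense windows whose mean was 17.7% and 44.6%. Here the methylation of the dense window and of its flank were of one order in each line, unlike at most shores. Of the 44, 25 were called lower in A129-2. The 4 lowest under the naming rule, at step 1 in Abr (19.8% and 49.1%), near Gm46353 (20.4% and 48.6%), in Galnt11 (20.9% and 50.8%) and near Gm45988 (23.4% and 50.4%), had levels above the mean of all shores in both lines. Without the limits of that rule the lowest level among the 44 was 7.75% in A129-2, at the shore in Tmem267. In AOS-14 it was 10.4%, at another shore. Shores of dense windows under 5%, 3705 in number, had means of 7.30% and 10.6%, and the 232 shores of dense windows in between had 11.7% and 16.7%.

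Recurrent CpG spacing, the only mark of possible repeated sequence available here, was frequent in these 44 shores. A recurrent spacing pattern was a run of 5 compared CpGs over 100 to 1000 bp whose exact spacing occurs again elsewhere among the compared CpGs. Such a pattern was present in 34 of the 44 shores, in 53 of the 3705 shores of dense windows under 5%, and in 115 shores in all. Of the 45 called shores 24 had one, 23 of them beside dense windows of 20% or more. The shores in Galnt11 and Abr, near Gm46353 and near Gm40378 shared a CpG span of 647 bp, and had 19.8% to 25.2% in A129-2 and 48.6% to 52.7% in AOS-14. Leaving out shores with the pattern left 21 called shores, and leaving out the 44 shores left 20. The part of repeated sequence in these differences was not tested.

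Read depth moved with some of them too. There were 34 shores whose reads per CpG exceeded the 99th percentile of compared CpGs in either library (667 reads in A129-2 and 753 in AOS-14), 24 of them on chromosome 10, and 6 of the 34 were among the called shores. Chromosome 10 held 10 of the 45 called shores, more than any other autosome, and 5 of those 10 had such depth. In the shore inside Afg1l on that chromosome, 8 CpGs drew 94361 reads in A129-2 and 77214 in AOS-14 and had means of 15.1% and 57.4%. The sources used here do not say how reads that match several places were treated.

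The 8 called shores with the largest differences under the naming rule, which leaves out short recurrent spacings and extreme depth, were mostly of the methylated-dense kind. After Pygm, the next were the shores in Gm52796 (24.5% in A129-2 and 55.2% in AOS-14), 5.72 kb from F5 (23.9% and 54.2%), 43.6 kb from Gm46329 (26.3% and 56.3%) and in Galnt11 (20.9% and 50.8%). They ended with those at step 2 in Abr (26.0% and 55.4%, a neighbour of the step 1 shore in that gene given above), 1.71 kb from Gm46353 (20.4% and 48.6%) and 7.25 kb from Gm12623 (25.7% and 53.7%). F5 encodes coagulation factor V, Galnt11 an enzyme that starts O-glycan chains, and Abr a regulator of small GTPases. All compared CpGs of these 8 shores were lower in A129-2, and Pygm alone among the 8 flanked a dense window under 20%.

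Of the 4 shores that the naming rule, with its minimum of 5 compared CpGs, gave as most methylated in both lines, 1 lay beside an unmethylated dense window. The rule leaves out the shore near Sirt5 described above, which has 4 CpGs. In Selenon, which encodes a selenoprotein of the endoplasmic reticulum, 6 CpGs on chromosome 4 (134550287 to 134550416) had means of 48.3% in A129-2 and 61.5% in AOS-14, while the dense window stood at 2.10% and 2.85%. Single CpGs there spanned 12.96% to 77.9% in A129-2 and 26.2% to 85.7% in AOS-14. The others under the naming rule lay near the gene models Gm12621, Gm11977 and Gm45988, at 57.0%, 35.1% and 40.2% in A129-2 and 51.3%, 62.1% and 56.7% in AOS-14.

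The position of a shore relative to genes went with a smaller difference in level than distance did. Of the dense runs, 4503 held an annotated start site. Step 1 shores of runs with no start site had means of 7.05% in A129-2 and 9.86% in AOS-14 (1208 shores). Those on the upstream side of a start site had 6.00% and 8.24% (704 shores), and those on the downstream side 5.56% and 7.62% (801 shores). Where starts on both strands shared the run, the means were 5.36% and 7.69% (297 shores). This order turned at step 2, where shores of runs with starts on both strands were the highest of the 4 kinds, at 13.6% and 22.3% (69 shores). Step 2 shores had 12.7% and 19.8% with no start site, 12.1% and 19.01% upstream, and 12.2% and 20.4% downstream.

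A start site inside the shore itself went with a low level. The 379 step 1 shores that hold a start site had means of 4.60% and 5.75%, against 6.47% and 9.08% in the 2644 that hold none. Without MspI-site CpGs the means were 1.26% and 1.75% against 2.73% and 4.44%. At step 2 the 62 shores with a start site had 8.26% and 12.1%, against 12.8% and 20.4% in the other 896. Of the 379, 5 reached 25% in AOS-14 and 0 were called lower in A129-2, beside 161 and 26 of those with no start site. Lower at any size were 11.1% and 25.5%. Shores with a start site also listed more CpGs, a mean of 8.82 against 7.63 at step 1.

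By gene body, step 1 shores at a gene end had means of 5.34% and 7.18% (629 shores), those inside a gene 6.18% and 8.59% (1843 shores) and those outside genes 7.43% and 10.6% (551 shores). The same order held at step 2, at 11.4% and 17.3%, 12.3% and 19.8%, and 13.7% and 21.7%. Runs of 2 or more dense windows had step 1 shores at 7.30% and 10.3%, and single dense windows at 6.06% and 8.40%, but at step 2 this order turned, at 11.4% and 17.4% against 12.8% and 20.5%. Low-coordinate and high-coordinate flanks were alike, at 6.22% and 6.26% in A129-2 and 8.66% and 8.69% in AOS-14 at step 1.

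**Figure D5:**
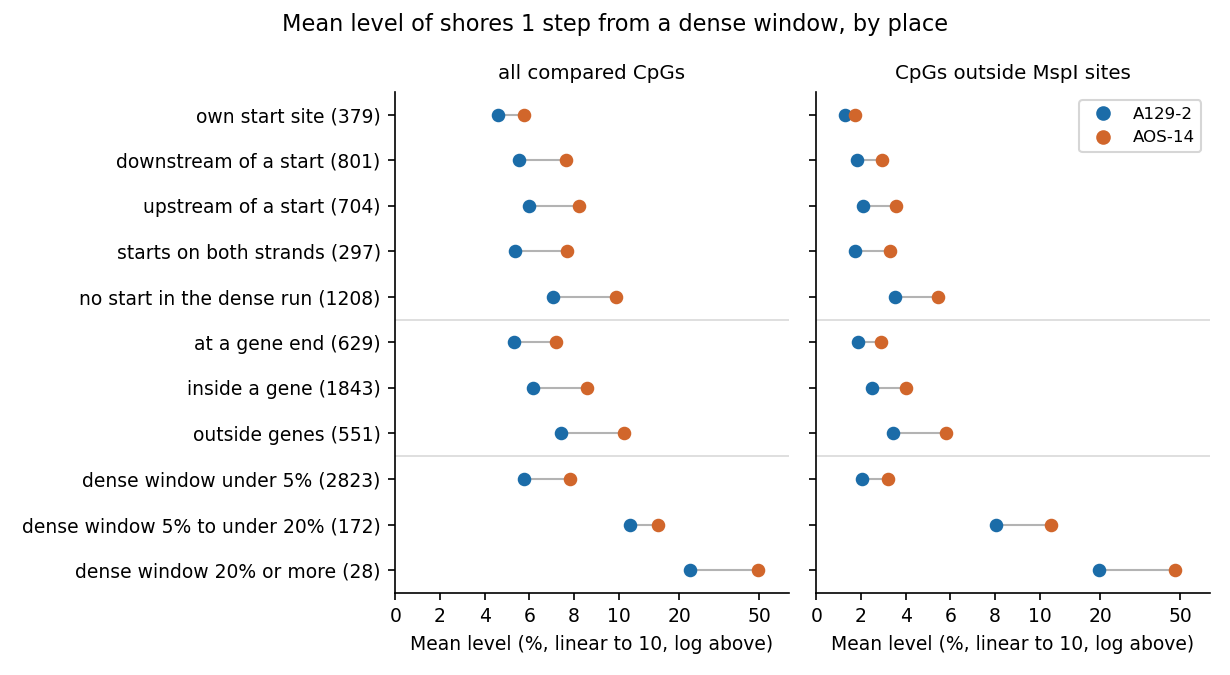
Mean level (%) of step 1 shores by the start sites of the dense run, by gene body and by the level of the dense window, for all compared CpGs (left) and without MspI-site CpGs (right). Blue is A129-2 and orange AOS-14, the number of shores stands in parentheses, and the axis is linear to 10% and logarithmic above. Shores of dense windows at 20% or more (22.5% and 49.5%) lie far to the right of every other class.

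The 2 flanks of 1 dense run were only loosely alike. In 278 runs with a step 1 shore on both sides, the levels of the flanks differed by a median of 3.70 points in A129-2 and 4.79 points in AOS-14. The gap exceeded 10 points in 42 and 72 runs and 25 points in 3 and 18. Across these runs Pearson's r between the flanks was 0.0861 (A129-2) and 0.223 (AOS-14), a description over runs of 1 library that share depth and MspI-site content. Without MspI-site CpGs it was 0.186 and 0.317 over 273 runs.

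Shores of genes from 12 lists were also read, covering pluripotency, lineage, signalling and chromatin genes. A shore was assigned to a gene when it lay in the gene or within 2 kb of it. Of 248 genes, 102 had at least 1 shore, giving 147 shores whose medians were 6.73% (A129-2) and 8.89% (AOS-14), beside 5.76% and 7.33% for all shores. Medians of the lists were not matched by distance. Step 1 shores, which had lower levels, were 8 of 16 for signalling, 19 of 36 for neural patterning and 9 of 9 for housekeeping genes. Among all shores they were 3023 of 3981. The level was lower in A129-2 in 125 of the 147. Only 1 was called, or 0.680% beside 1.13% of all shores, and 10 of the 147 reached 25% in AOS-14.

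Developmental regulators, many of which sit in large CpG islands, had shores with medians near that of all shores or a few points above it. Of 24 neural patterning genes, 19 had shores, 36 in all, with medians of 8.47% and 10.9% and none called. The largest difference in that list was in Nkx2-2, a homeobox gene of ventral neural tube and pancreas, where 11 CpGs had means of 17.6% and 30.4% (adjusted p of Fisher's exact test 5.51e-23, under the 25 points required). The 18 shores of 13 Hox genes had medians of 7.46% and 9.94%, and the largest difference there was 17.9% against 33.7% at a shore beside Hoxa6. The 19 shores of mesoderm and heart genes had medians of 8.41% and 10.5%. The 13 shores of endoderm genes had medians of 6.43% and 6.12%, and Gata4, a zinc-finger factor of heart and gut, had the largest difference at 11.6% and 21.8%. None of the shores of these lists was called lower or higher at 25 points.

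Naive pluripotency genes had 7 shores, at Klf2, Klf4, Esrrb, Nr5a2, Fgf4 and Sall4, with medians of 4.10% and 12.1%, all 7 lower in A129-2 and none called. The median difference within a shore (A129-2 minus AOS-14) was only -2.94 points. Without MspI-site CpGs the medians were 1.06% and 1.98%. Klf4, one of the factors used to reprogram somatic cells, had 4.10% and 12.1% over 3 CpGs. Esrrb, a nuclear receptor of the naive state, had 13.9% and 16.5% over 12 CpGs, the most of the 7 shores. The 6 shores of primed and early lineage genes had medians of 9.93% and 10.2%, with Lef1, a Wnt pathway factor, at 10.5% and 15.5%.

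Housekeeping genes had 9 shores, all at step 1, with medians of 4.17% and 4.48%, beside 4.74% and 6.01% over all step 1 shores. Of the 9, Actb, the beta-actin gene, had the largest difference at 8.78% and 15.4%. The 10 shores of polycomb and chromatin genes had medians of 6.15% and 7.11%. Ring1, which encodes a ubiquitin ligase of polycomb complex 1, had 17.6% and 30.7% over 13 CpGs, and all 13 were lower in A129-2. The 16 shores of signalling genes had medians of 5.82% and 9.35%, and the largest difference there, 5.20% against 12.2%, was at a shore inside Wnt9b and within 2 kb of Wnt3. None of the shores of these 3 lists was called.

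The list of DNA methylation machinery held the 1 called shore, 0.605 kb from Mbd1, which encodes a methyl-CpG binding protein. Over 4 CpGs, 3 of them at MspI sites, its means were 23.96% and 50.04%, and it carried a long recurrent spacing pattern. The other 8 shores of this list included Uhrf1, the cofactor that brings maintenance methylation to replicating DNA. A shore that overlaps Uhrf1 and holds a start site had 3.66% and 3.11%. A second shore, outside the gene, had 11.3% and 30.8% over 3 CpGs, from 221 and 236 reads. Shores of Uhrf2, Tet3, Mbd2 and Hells had levels up to 16.6% in A129-2 and 20.7% in AOS-14.

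Of 20 germline genes, 1 had a shore. Upstream of Dazl, which encodes an RNA-binding protein of germ cells, 10 CpGs on chromosome 17 (50294066 to 50294237) had means of 30.3% (A129-2) and 39.2% (AOS-14), with an adjusted p of 0.144 by Fisher's exact test. Single CpGs ranged from 1.85% to 60.2% in A129-2 and from 7.14% to 73.9% in AOS-14. The ranges overlapped, and 8 of the 10 were lower in A129-2. The dense window stood at 8.23% and 7.06%. Imprinted genes had 8 shores at 6 of 24 genes, with medians of 6.61% and 9.25%. The largest difference was upstream of Inpp5f, at 9.69% and 25.7% over 5 CpGs, and none was called.

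The 19 shores that were higher in A129-2 at any size, in mean level and in summed reads, exceeded AOS-14 by 0.626 to 9.76 points in mean level. Their medians were 10.9% and 6.12%. The largest was in Casz1, a zinc-finger transcription factor gene, where 4 CpGs averaged 23.5% (A129-2) and 13.7% (AOS-14). Among them were 4 shores of genes on the lists, with an adjusted p of Fisher's exact test between 0.0148 and 0.0463. The adjustment pooled both directions and most calls were lower, so it does not bound false calls among the few higher ones. Shh, which encodes a secreted morphogen, had 8.05% and 3.51%, from 155 and 572 reads. Gata6, a zinc-finger factor of endoderm and heart, had 10.9% and 6.12%. The shore in Irx3os, the antisense neighbour of the homeobox gene Irx3, had 19.7% and 14.9%, and a shore in Wnt3, which encodes a secreted signal, had 13.2% and 11.1%.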

How the data were processed

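CpG methylation was measured in 2 cell lines with 1 library each. The submitters' processing notes name BSMAP, an aligner for bisulfite reads, and the mouse build mm10. The sources used here give no BSMAP version and say nothing of trimming, duplicates or reads that match several places. Per the file headers, the authors deposited for each CpG a methylation fraction from 0 to 1 and the counts of all and of methylated reads on both strands. Levels were recomputed from these deposited counts in percent, and file positions, which count from 0, were raised by 1.

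Windows, shores and compared CpGs follow the rules in the report, and MspI-site CpGs are those whose sequence in the file holds CCGG. Windows were tested by a two-sided Fisher's exact test, with p-values adjusted by Benjamini-Hochberg over 90713 windows, at an adjusted p of 0.05 and a difference of mean levels of 25 points. The test uses summed reads, which give deep CpGs more weight than the mean level does. The test was checked on simulated windows with counting error only and with planted differences above the 25 points required. That check does not cover spread between CpGs or libraries, or calls with no minimum difference. Reads of 1 library are not separate cultures, so tests and exact 95% intervals cover counting error only. Gene bodies, start sites and promoters came from RefSeq tables of GRCm38.p6. Levels of groups of shores are described with no test.

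The members and the 12 gene lists were chosen with earlier results of these data known. The naming rule takes the 8 called shores with the largest differences, at most 1 per dense run and with 5 or more compared CpGs. It leaves out short recurrent spacings (steps of at most 60 bp) and depth above the 99th percentile. Under the same limits it takes the 4 shores highest in both lines and the 4 lowest beside dense windows of 20% or more. Without these limits it takes the called shores and the largest difference of each list. Shores named outside it were chosen after their values were seen. Alternatives varied the limits on CpGs, reads and difference, the weighting by reads and the kinds of CpG. Python 3.11.15, pandas 2.3.3, numpy 2.4.6, scipy 1.17.1 and matplotlib 3.10.9 were used.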

Additional observations from a re-analysis of the deposited data

How the results depend on the processing

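No paired analysis was possible because each line has 1 library. The 21 alternative settings gave 221 values, of which 160 stayed near the reported value and 61 moved. For counts, near meant within a set fold of the reported value. For levels and ratios it meant within binomial limits that take windows or CpGs as trials. Those limits are narrower for larger sets, so the split depends on set size and is no measure of replicate error. A129-2 was below AOS-14 in 73 of 73 pairs of levels, step 2 above step 1 in 32 of 32, and MspI-site above other CpGs in 26 of 26. The order of the ratios (dense above shores above distant) held in 13 of 13 settings. Shores with recurrent patterns and shores of methylated dense windows were left out as settings chosen after seeing the data. Where a cause of a move is not given, the cause was not tested.

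The count of shores lower in A129-2 was 83 with dense windows from 25 CpGs and 18 from 40, where the set of shores itself changes. It was 27 with 5 or more compared CpGs, 216 at 15 points, 459 at 10 points and 1234 with no minimum difference. It was 21 without long recurrent patterns, 20 without shores of dense windows at 20% or more, 28 on other CpGs alone and 15 on MspI-site CpGs alone. With no minimum difference, 24 shores passed with a higher mean level, of which 5 had lower summed reads in A129-2 and 19 had higher. Of the 1234, 1 had higher summed reads.

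Mean shore levels in A129-2 and AOS-14 were 8.68% and 12.9% with shores under 10 CpGs, and 6.34% and 9.04% with 5 or more compared CpGs. They were 6.90% and 10.4% weighted by reads, 2.82% and 4.69% on other CpGs alone, 14.5% and 19.6% on MspI-site CpGs alone, and 9.20% and 13.6% without short recurrent spacings. With shores under 20 CpGs the AOS-14 mean was 10.3%. At step 1 the means were 7.72% and 11.1% on flanks with both steps, 2.04% and 3.29% on other CpGs, 13.6% and 17.9% on MspI-site CpGs, and 7.59% and 10.6% without short recurrent spacings. With 5 or more compared CpGs the AOS-14 means were 7.40% at step 1 and 16.8% at step 2. At step 2 they were 6.73% and 11.8% on other CpGs, and 17.7% and 25.5% on MspI-site CpGs. The ratio in distant windows was 0.548 on other and 0.663 on MspI-site CpGs.

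MspI-site CpGs of shores in AOS-14 had 20.9% with shores under 10 CpGs, 18.6% under 20, 18.3% with 5 or more compared CpGs, 21.4% weighted by reads and 20.7% without short recurrent spacings. Other CpGs had 3.20% and 5.40% with dense windows from 25 CpGs, 2.42% and 3.94% from 40, 3.57% and 6.10% with shores under 10 CpGs and 2.26% and 3.71% under 20. They had 2.51% and 4.08% with 5 or more compared CpGs, 3.82% and 7.43% weighted by reads, and 4.09% and 7.02% without short recurrent spacings. In AOS-14 they had 4.27% without long recurrent patterns and 4.25% without shores of dense windows at 20% or more. At 3 compared CpGs a level rests on few sites, and 1 library a line gives no replicate error.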
